A study of Drosophila melanogaster with 2 samples.

Results

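Aminoacyl-tRNA synthetases are the enzymes that join each amino acid to its transfer RNA. In the Drosophila melanogaster dm6 annotation, 33 of 13981 protein-coding genes have a symbol of the form AlaRS or AlaRS-m, or are named GluProRS, and these are the genes described here. Of the 33, 18 carry no suffix and 15 carry the suffix -m, which marks enzymes of the mitochondrion. Those without it are called cytoplasmic below, although GlyRS and LysRS are known in animals to serve both compartments. The 15 include no counterpart of HisRS, ThrRS or GlnRS either, so cytoplasmic is a label by suffix only. The genes for the phenylalanyl enzyme of the cytoplasm, alpha-PheRS and beta-PheRS, have symbols outside this form and are not counted.

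The measurement is ChIP-seq, the sequencing of DNA that is precipitated with a chromatin protein, for the bZIP transcription factor CrebA fused to eGFP. There is 1 group, the strain CrebA-MiMIC-GFP, in which an eGFP exon inserted in an intron gives a CrebA-GFP fusion gene, sampled as wandering larvae of the third instar with males and females pooled and no stated age. It has 2 biological replicates, numbered 4 and 2. The precipitation used an antibody to GFP per one label, while another names the antibody CrebA, and no second genotype, stage or treatment was analysed here. In whole larvae, strong binding in few cells and weak binding in many cannot be told apart.

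CrebA belongs to the CREB3 family and is known as an activator of secretory pathway genes in the embryonic salivary gland. The cell keeps one set of synthetases for cytoplasmic protein synthesis and a further set, made from nuclear genes and imported, for the mitochondrial ribosome. In mammals many cytoplasmic synthetase genes are targets of ATF4, a bZIP factor that acts when amino acids run short and whose fly counterpart is crc.

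The 4 sequences that follow lie upstream of the starts where both replicates had a peak, and end at the base before the transcript start. Each is read 5′ to 3′ on the strand of the gene, from the RefSeq Release 6 genome, and stops short of any annotated exon. Capitals mark matches to any of the 11 motifs searched (described with the promoter sequences), on either strand. The GluProRS internal start, at chr3R:23955500-23955705 on the minus strand, has 3 copies of CTCTC, which is GAGAG on the other strand, 77 to 108 bases upstream, and 1 AGATAA. The GluProRS gene start, at chr3R:23958392-23958641 on the minus strand, holds none of the motifs. The MetRS-m start, at chr3R:14259992-14260207 on the minus strand, holds 1 ACGTG. The ArgRS-m start, at chr3R:7886795-7887044 on the plus strand, holds 2 overlapping copies of GAGAG.
GluProRS internal start: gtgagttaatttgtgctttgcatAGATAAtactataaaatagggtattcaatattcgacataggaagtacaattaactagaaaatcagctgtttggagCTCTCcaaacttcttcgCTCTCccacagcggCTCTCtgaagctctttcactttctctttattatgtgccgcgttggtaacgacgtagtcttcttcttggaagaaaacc
GluProRS gene start: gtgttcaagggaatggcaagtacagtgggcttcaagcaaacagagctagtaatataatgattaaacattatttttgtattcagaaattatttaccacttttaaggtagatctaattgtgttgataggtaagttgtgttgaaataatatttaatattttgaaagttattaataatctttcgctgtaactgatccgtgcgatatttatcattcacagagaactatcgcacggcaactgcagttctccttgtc
MetRS-m start: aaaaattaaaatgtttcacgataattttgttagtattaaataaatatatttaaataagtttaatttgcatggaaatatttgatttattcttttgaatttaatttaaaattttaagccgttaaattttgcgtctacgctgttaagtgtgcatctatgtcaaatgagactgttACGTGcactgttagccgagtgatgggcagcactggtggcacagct
ArgRS-m start: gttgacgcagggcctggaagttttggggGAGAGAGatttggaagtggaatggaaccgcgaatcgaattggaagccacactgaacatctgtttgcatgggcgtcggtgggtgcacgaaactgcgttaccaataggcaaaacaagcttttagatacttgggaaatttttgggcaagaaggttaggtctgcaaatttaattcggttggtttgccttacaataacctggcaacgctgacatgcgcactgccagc
The GC content of these stretches was 39.3%, 32.8%, 29.6% and 48.4% in that order.

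No synthetase gene had a peak of the optimal list at its promoter, and 1 of 33 had one in the pooled relaxed list. A promoter peak here has its summit at most 500 bp from an annotated transcript start of the gene. The optimal list holds the 2238 peaks that the authors kept after the irreproducible discovery rate (IDR) step, which compares replicates. It gave 0 of 33 synthetase genes (exact 95% interval 0 to 10.6), against 5.14% of all protein-coding genes. A count of 0 allows a share of up to 9.09% when the limit is set at 3 genes, and both limits lie above 5.14%. The pooled relaxed list, 29999 peaks and background regions called on both replicates together, gave 1 of 33 (3.03%, exact 95% interval 0.0767 to 15.8), namely ArgRS-m, against 23.7% of all genes. The cytoplasmic enzymes had 0 of 18 in both lists, and the mitochondrial enzymes 0 of 15 in the optimal and 1 of 15 in the pooled list. Intervals cover counting error only, and genes are not replicates, so no test was made between the sets.

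The replicates taken singly showed more. The relaxed list of replicate 4, again of 29999 peaks, put a summit at 6 of 33 synthetase genes (18.2%, exact 95% interval 6.98 to 35.5), against 24.3% of all genes. That of replicate 2 put one at 4 of 33 (12.1%, exact 95% interval 3.40 to 28.2), against 26.0% of all genes. Both lists had one at 3 of 33 (9.09%, exact 95% interval 1.92 to 24.3), against 17.4% of all genes, and these were GluProRS, MetRS-m and ArgRS-m. By class, the cytoplasmic enzymes had 3 of 18 in replicate 4 and 2 of 18 in replicate 2, and the mitochondrial enzymes 3 of 15 and 2 of 15, shares whose intervals overlap. Taking only the 2238 strongest peaks of 1 replicate, as many as the optimal list holds, put the synthetase shares above those of all genes. Replicate 4 then gave 4 synthetase genes (12.1%, exact 95% interval 3.40 to 28.2, against 5.37% of all genes). Replicate 2 gave 3 (9.09%, exact 95% interval 1.92 to 24.3, against 5.87%), compared with 0 in the optimal list. Both intervals include the share of all genes, and only GluProRS and MetRS-m were in both shortened lists.

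**Figure D1:**
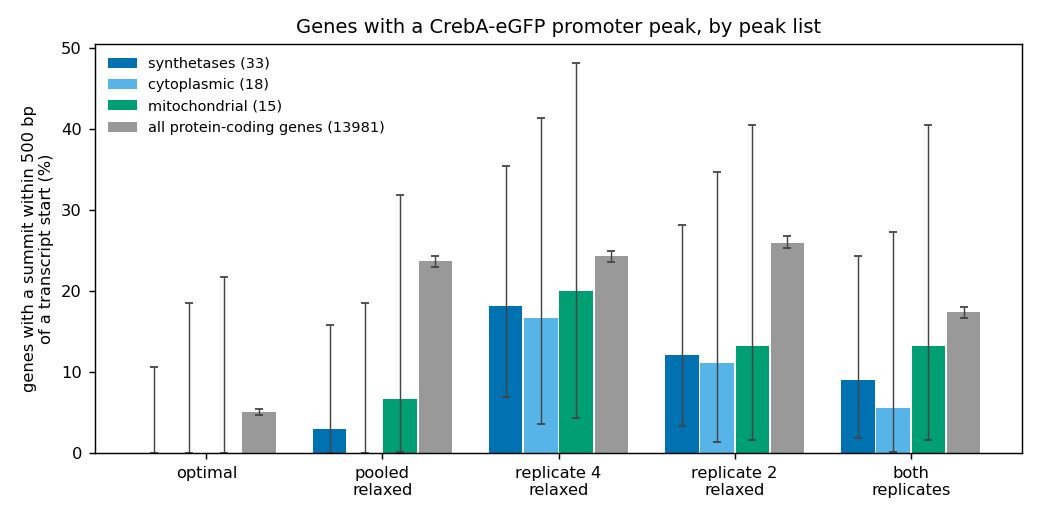
Percent of genes with a summit within 500 bp of a transcript start, in each deposited list and in both replicate lists, for all 33 synthetase genes, the 18 cytoplasmic and 15 mitochondrial ones, and all 13981 protein-coding genes. Error bars are exact 95% binomial intervals; the synthetases are at 0% in the optimal list and 3.03% in the pooled list, against 5.14% and 23.7% of all genes, and their intervals in the single replicates include the share of all genes.

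GluProRS, a cytoplasmic enzyme that charges the transfer RNAs for both glutamate and proline and sits in the multisynthetase complex, had the strongest peaks shared by both replicates. The gene (FBgn0005674, 3R 23952136 to 23958391, minus strand) has 2 annotated starts, the outer one at 23958391 and an internal one at 23955499 that opens a shorter transcript. At the internal start, the replicate 4 peak (3R 23955299 to 23955682) had a signal of 74.5, in the authors' units, and its summit lay 8 bp inside the transcript. The replicate 2 peak (3R 23955271 to 23955674) had a signal of 85.5 with its summit 26 bp inside. Both summits fell in a coding exon of GluProRS, without the transcript being told apart. They lay downstream of the CTCTC copies printed above, which lie in an intron of the long transcript. These peaks ranked 458 and 737 of 29999 by signal, within the strongest 1.53% and 2.46%, and both had the highest −log10 q-value in their list (3.09 and 3.18). The maximum in replicate 2 is shared, as the AspRS peak described below has it too. How many peaks share either maximum is not given here, so it does not single these peaks out.

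At the outer start of GluProRS, replicate 4 had a peak of signal 43.2 (rank 1597) with its summit 217 bp upstream. Replicate 2 had one of signal 59.4 (rank 1690), 126 bp upstream. This pair is shared with AP-1sigma, a subunit gene of a clathrin adaptor on the opposite strand, whose start lay 43 bp from the replicate 4 summit and 134 bp from that of replicate 2. The pooled list had no summit at either start: the nearest lay 4356 bp from the outer and 7248 bp from the internal one, inside a stretch of 47499 bp without a pooled summit in which replicate 4 had 5 summits and replicate 2 had 9.

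The other cytoplasmic enzymes with a peak had it in 1 replicate only. AspRS, the aspartyl enzyme (FBgn0002069, 2R 12877004 to 12883168), had the highest-ranked promoter peak of any synthetase in any list: signal 143 and rank 197 in replicate 2 (2R 12880566 to 12880969), in an intron 336 bp downstream of an inner start. Replicate 4 had no summit within 14417 bp of any AspRS start and the pooled list none within 15522 bp. LeuRS, the leucyl enzyme (FBgn0284253, 2L 3510328 to 3514656), had a replicate 4 peak of signal 57.5 and rank 843 (2L 3514594 to 3514977), 130 bp upstream of its start and 86 bp from that of CG17593 on the other strand. In replicate 2 the nearest summit to the LeuRS start was 7652 bp away. GlyRS, the glycyl enzyme (FBgn0027088, 3L 15095142 to 15097686), had 2 replicate 4 peaks upstream. The stronger (signal 40.8, rank 1792) lay 359 bp from the GlyRS start but 59 bp from that of Plp, a pericentrin-like gene of the centrosome. The weaker (signal 22.7, rank 5026) lay 92 bp from the GlyRS start. Replicate 2 had no summit within 4078 bp of it.

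Among the mitochondrial enzymes, MetRS-m, which charges the methionine transfer RNAs of the organelle, had the strongest pair. At its start (FBgn0027083, 3R 14249043 to 14259991, minus strand), replicate 4 had a peak of signal 45.9 and rank 1405 (3R 14259879 to 14260262), 80 bp upstream. Replicate 2 had one of signal 69.6 and rank 1185 (3R 14259833 to 14260236), 44 bp upstream. No other gene start lay within 500 bp of either summit, so this pair belongs to MetRS-m alone by the distance used, and both summits lie in the stretch printed above. The nearest pooled summit was 3099 bp away, inside the gene, where the pooled list had 4 summits. A weaker replicate 4 peak 279 bp upstream had a signal of 13.0 and rank 15294.

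ArgRS-m, the mitochondrial arginyl enzyme (FBgn0037526, 3R 7887045 to 7890150), was the one synthetase gene with a promoter peak in the pooled list and in both replicates, but a weak one. Its signal was 39.0 (rank 6115) in the pooled list, 16.5 (rank 9249) in replicate 4 and 26.5 (rank 6320) in replicate 2, with summits 147 to 160 bp inside the gene, in its opening intron. The −log10 q-values of these ArgRS-m peaks were also low, at 0.610, 0.367 and 0.719 in that order. The highest were 3.09 in replicate 4 and 3.18 in replicate 2. As the relaxed lists hold background regions too, the ArgRS-m peak may be no more than background. The lowest signal in the optimal list was 76.9. A weaker peak, absent from replicate 4, lay 345 bp upstream in the pooled list (signal 29.5) and 337 bp upstream in replicate 2 (signal 15.8), at the start of CG17816 on the other strand. ProRS-m, the mitochondrial prolyl enzyme (FBgn0027082, 3L 2650161 to 2651850), had a replicate 4 peak of signal 19.7 (rank 6485) 109 bp upstream, which also lay 129 bp from the starts of CG42304 and of Snup, a snurportin gene. Replicate 2 had no summit within 3951 bp.

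**Figure D2:**
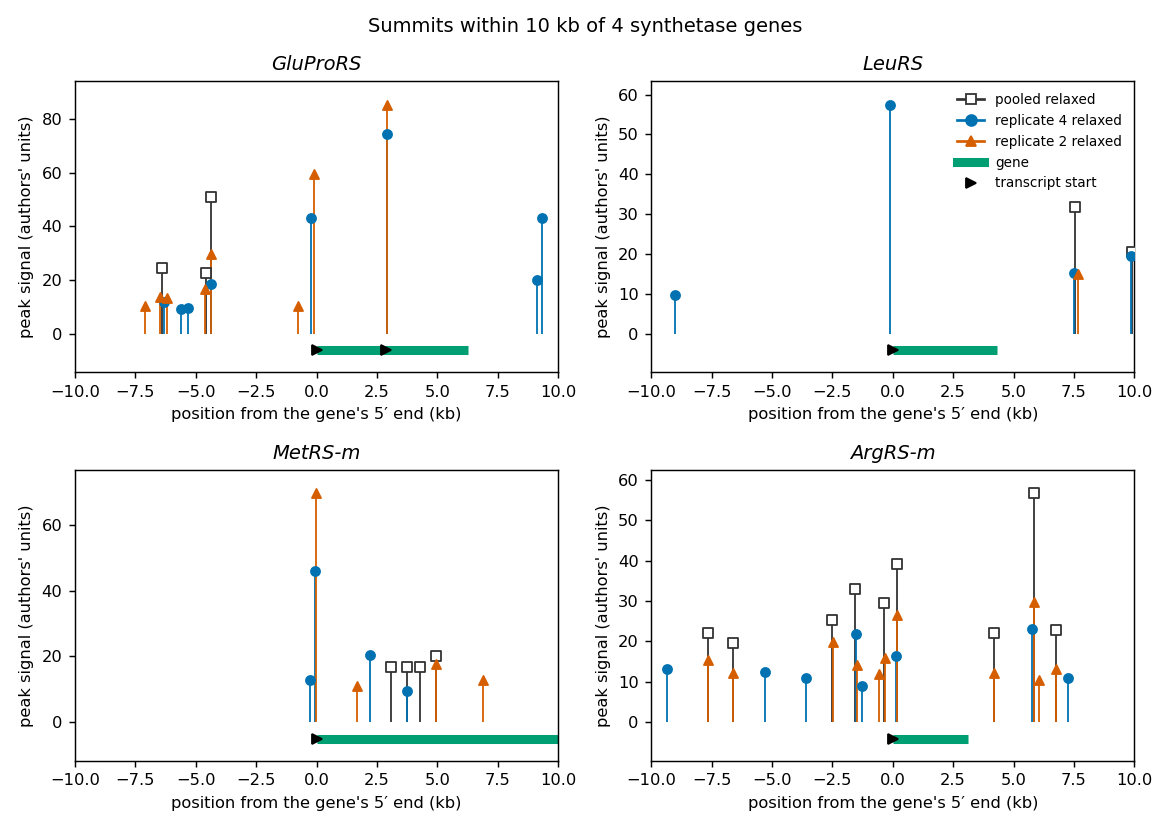
Peak signal in the authors' units against the distance of the summit from the gene's 5′ end in kb, for GluProRS, LeuRS, MetRS-m and ArgRS-m, with the direction of transcription to the right. At GluProRS and MetRS-m the tall marks at the transcript starts are replicate 4 circles and replicate 2 triangles without a pooled square, LeuRS has a replicate 4 circle alone (57.5), and ArgRS-m has all 3 marks at 39.0 or below.

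The remaining 26 synthetase genes had no promoter peak in any list, against 9222 of 13981 protein-coding genes with none in any relaxed list. The 14 cytoplasmic ones were AlaRS, ArgRS, AsnRS, CysRS, GlnRS, HisRS, IleRS, LysRS, MetRS, SerRS, ThrRS, TrpRS, TyrRS and ValRS. The 12 mitochondrial ones were AlaRS-m, AsnRS-m, AspRS-m, CysRS-m, GluRS-m, IleRS-m, LeuRS-m, PheRS-m, SerRS-m, TrpRS-m, TyrRS-m and ValRS-m. The 7 with a peak in at least 1 relaxed list make 21.2% of the synthetases, against 34.0% of all protein-coding genes.

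Peaks were also far from most synthetase genes. The median distance from a transcript start to the nearest pooled summit was 13205 bp for the 33 synthetase genes and 5553 bp for the 13945 nuclear protein-coding genes of the arms with peaks. A pooled summit lay within 5000 bp of 3 of 33 (9.09%), against 48.6% of those genes, and within 10000 bp of 11 of 33 (33.3%), against 61.7%. In replicate 4 the medians were 11620 and 4280 bp, and in replicate 2 they were 9649 and 3918 bp. For the sparser optimal list they were 36368 and 32793 bp, and 0 of 33 synthetase genes had an optimal summit within 5000 bp, against 12.8% of nuclear genes. AsnRS, the asparaginyl enzyme, had the nearest optimal summit (9773 bp) and LeuRS-m the farthest (282622 bp). The order of cytoplasmic and mitochondrial medians was the same in all 4 lists, with 14248 and 13205 bp in the pooled list, 12232 and 9404 bp in replicate 4, 10616 and 8968 bp in replicate 2, and 38938 and 31572 bp in the optimal list. The lists come from the same 2 replicates, so the shared order is not repeated evidence. The differences between these medians are small beside the range within each class. In the pooled list that range ran from 4356 to 46240 bp for the cytoplasmic and from 160 to 47369 bp for the mitochondrial genes.

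**Figure D3:**
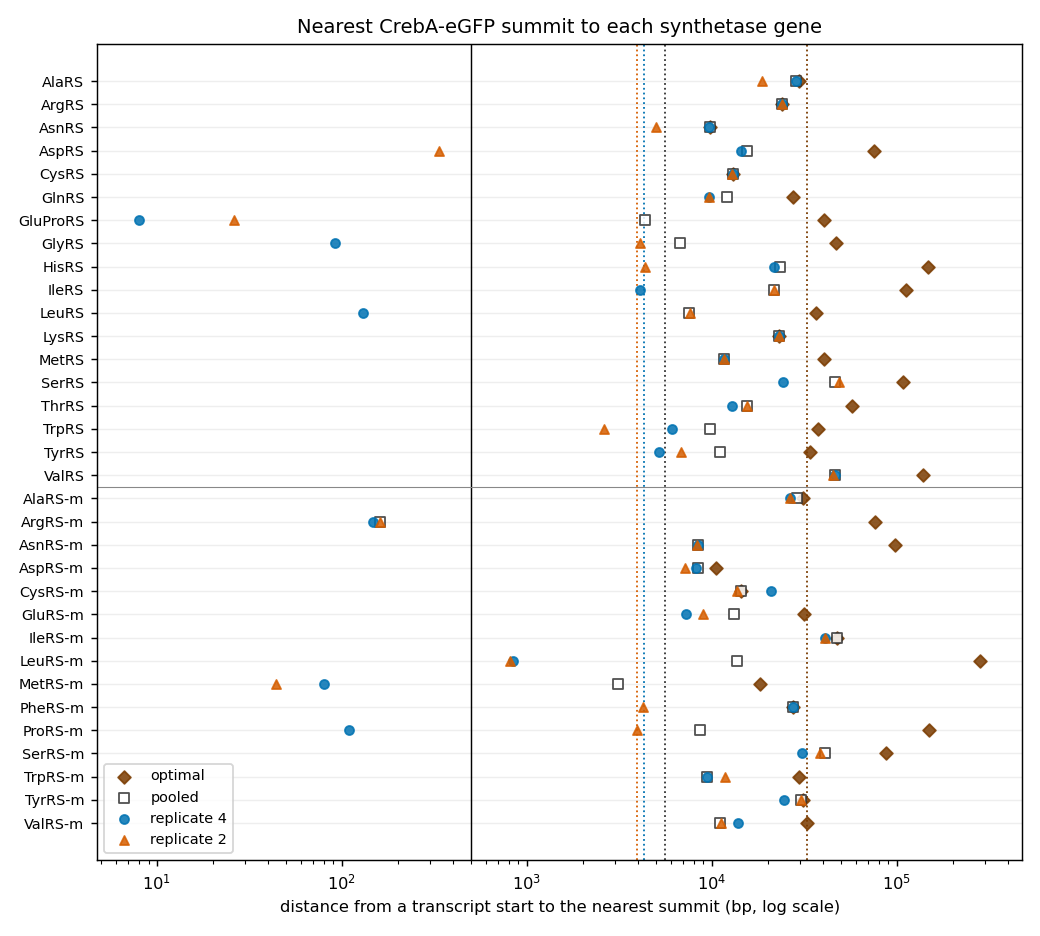
Distance in bp, on a log axis, from a transcript start of each synthetase gene to the nearest summit of each list, cytoplasmic genes above the grey line and mitochondrial genes below it. The solid line marks 500 bp and each dotted line the median of nuclear protein-coding genes for the list of that colour (3918 to 32793 bp); 7 genes have a mark left of the solid line, 1 of them (ArgRS-m) a pooled one.

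Many synthetase genes start back to back with another gene, and across the genome the share with a promoter peak varied with this arrangement. A protein-coding start on the opposite strand lay within 500 bp of 21 of 33 synthetase genes (63.6%), against 3881 of 13981 protein-coding genes (27.8%). Across all protein-coding genes, those with such a start had a pooled promoter summit in 9.40% of cases and those without in 29.1%. In the optimal list the shares were 3.09% and 5.92%. Among the 21 synthetase genes with an opposite start near, 1 had a pooled summit (4.76%), 5 a replicate 4 summit (23.8%, against 11.2% of all genes of that arrangement) and 3 a replicate 2 summit (14.3%, against 13.7%). Among the 12 without, 0 had a pooled summit, 1 a replicate 4 summit (8.33%, against 29.3%) and 1 a replicate 2 summit (8.33%, against 30.8%). MetRS-m is the gene counted in both replicates there, and the other 6 genes with a peak (AspRS, GluProRS, GlyRS, LeuRS, ArgRS-m and ProRS-m) each have an opposite start near. That start need not be near the peak itself. No other gene start lay within 500 bp of the AspRS summit or of the summits at the GluProRS internal start. The part of this arrangement in the low pooled share of the synthetases was not tested. The number of starts moved less: synthetase genes had 1.30 distinct starts on average, against 1.40, and 24 of 33 had 1. Among genes with 1 start, a pooled summit was found at 4.17% of synthetase genes, against 19.5% of protein-coding genes. In replicate 4 the shares were 20.8% and 20.2%, and in replicate 2 they were 8.33% and 20.9%.

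**Figure D4:**
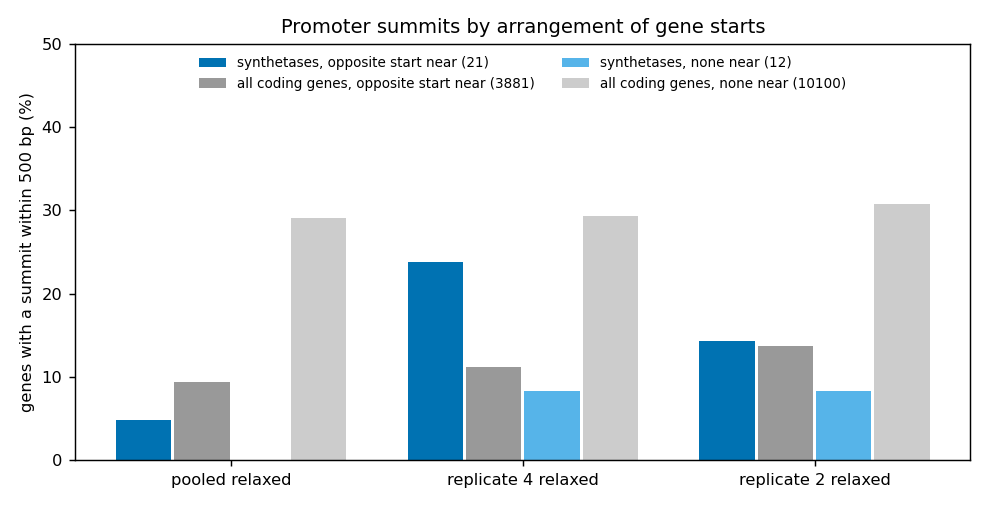
Percent of genes with a promoter summit in the pooled, replicate 4 and replicate 2 relaxed lists, split by whether a protein-coding start on the opposite strand lies within 500 bp (21 synthetase genes, 3881 of all genes) or not (12 and 10100). Genes with an opposite start near are lower among all genes in each list, 9.40% against 29.1% in the pooled list, and the bars for synthetases rest on 0 to 5 genes each.

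For the ribosomal protein genes, the shares in the pooled list were also below the 23.7% of all genes. Pooled promoter summits were found at 12 of 92 RpL and RpS genes of the cytoplasmic ribosome (13.0%) and at 4 of 73 mRpL and mRpS genes of the mitochondrial ribosome (5.48%), compared with 3.03% of the synthetases. The order was not the same in each list. In replicate 4 the synthetases were at 18.2%, the RpL and RpS genes at 15.2% and the mRpL and mRpS genes at 9.59%. In replicate 2 the shares were 12.1%, 15.2% and 11.0%, and for both replicates together 9.09%, 13.0% and 6.85%. In the optimal list they were 0%, 5.43% and 1.37%, beside 5.14% of all genes. These sets were chosen after the synthetase values were seen.

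The promoters were searched for 11 motifs on both strands, from 250 bases before to 50 after each gene's 5′ end. The CREB3 family site CCACGTCA was in 0 of 33 synthetase promoters, against 0.372% of 13980 protein-coding promoters, and the CRE palindrome TGACGTCA in 0, against 0.436%. Its shorter form CACGTCA was in 1 (SerRS-m, 3.03%, against 1.42%). The ACGTG core, which is part of CACGTCA read on the other strand and of the E-box CACGTG, was in 13 of 33 (39.4%), against 23.2%, in 9 cytoplasmic and 4 mitochondrial genes. CACGTG was in GlnRS and LeuRS-m (6.06%, against 4.19%). The ATF4-type sequence TGATGCAA was in 0, against 0.815%, and the AP-1 sequence TGACTCA in 0, against 2.48%. GAGAG, the GAGA factor sequence, was in 6 (18.2%, against 29.7%), and ArgRS-m was the one of these with a peak. The DRE sequence TATCGATA was in 5 (15.2%, against 9.35%), the forkhead sequence TGTTTAC in 1 (3.03%, against 9.18%) and the GATA sequence AGATAA in 5 (15.2%, against 18.6%). With 33 promoters each gene is worth 3.03%, and a match shows only that the letters are present.

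Genes that work beside the synthetases were taken from 5 lists, which were chosen with earlier results of these data known. A share within a list is therefore a description and not independent support. The multisynthetase scaffold genes AIMP1, AIMP2 and AIMP3, which hold the cytoplasmic complex together, had no promoter summit in any list (0 of 3). Nor did the mitochondrial genes Slimp, a seryl synthetase-like protein, and GatA, GatB and GatC, the amidotransferase that completes glutaminyl-tRNA (0 of 4). Of all protein-coding genes, 34.0% had a summit in at least 1 relaxed list and 9222 of 13981 had none, so most genes lack one. The list named integrated stress response holds crc with other stress and translation genes. It had an optimal promoter peak at 5 of 10 genes, against 5.14% of all genes. They were Xbp1 (signal 395), Atf3 (201), crc (199), Xrp1 (199) and Thor (122), of which the first 4 encode bZIP factors and Thor encodes the translation inhibitor 4E-BP. At crc, the ATF4 gene (2L 21310966 to 21311369 for the peak), the signal was 76.2 in replicate 4 (rank 420) and 117 in replicate 2 (rank 337). Xbp1 had no replicate 4 summit at its promoter. The kinases Gcn2 and PEK and the eIF2 subunit genes eIF2alpha, eIF2beta and eIF2gamma had none in any list. Of these 10 genes, 6 have more than 1 start, and 11.3% of protein-coding genes with more than 1 start had an optimal promoter peak.

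Among 9 genes of amino acid synthesis and one-carbon supply, 2 had an optimal peak: AsnS, the enzyme that makes asparagine, the amino acid charged by AsnRS (signal 103, 3L 21172633 to 21173036), and P5CS, which makes a proline precursor (signal 93.1, 3L 21971686 to 21972089). The share over all genes was 5.14%, or 11.3% of genes with more than 1 start, as 5 of these 9 have. AsnS had 53.2 in replicate 4 and 54.0 in replicate 2, and P5CS had 40.8 and 51.1. Of 7 amino acid transporter genes, 0 had an optimal peak and 3 had a pooled one: slif (signal 70.3), path (41.3) and mnd (33.4). Replicate 4 had no promoter summit at path. Its strongest peak at mnd (3L 14987006 to 14987389) lay apart from the pooled one (3L 14984828 to 14985231). A pooled promoter peak was found at 23.7% of all genes and at 35.4% of those with more than 1 start, as all 7 transporter genes have. The GluProRS ranks of 458 and 737 in the single replicates fall among those of these genes, between crc and Atf3 in replicate 4 and between crc and Thor in replicate 2. The difference is in the pooled list, where crc, Thor and AsnS ranked 281, 910 and 1304 and GluProRS was absent.

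**Figure D5:**
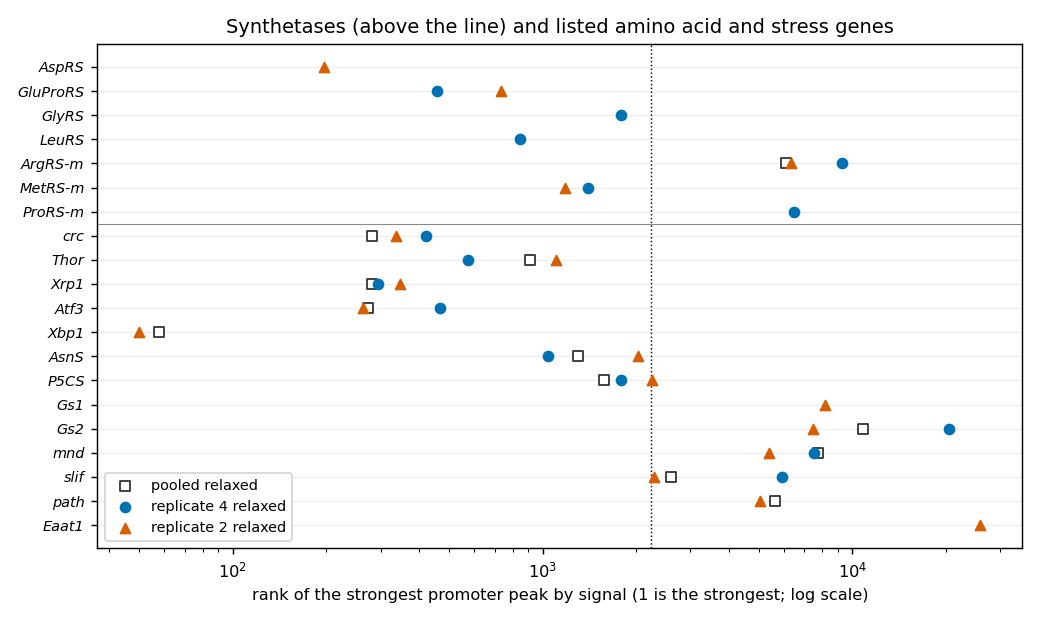
Rank by signal (log axis, 1 is the strongest) of the strongest promoter peak in the pooled, replicate 4 and replicate 2 relaxed lists, for the 7 synthetase genes with any (above the line) and the listed stress response and amino acid genes with any (below it). The dotted line marks rank 2238, the length of the optimal list; crc, Thor, Xrp1, Atf3, Xbp1, AsnS and P5CS have pooled squares left of it, whereas AspRS, GluProRS, GlyRS, LeuRS and MetRS-m have replicate marks there and no pooled square.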

How the data were processed

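Peaks come from 2 ChIP-seq replicates of CrebA-eGFP, whose antibody is labelled GFP in one place and CrebA in another. Per the deposited notes, the authors called relaxed lists of peaks and background for each replicate and for the pooled reads against a control, and derived the optimal list by IDR. Which aligner, peak caller and IDR threshold they used is not given in the sources used here. The signal is the authors' deposited value per peak, of unstated scaling, used for ranks and descriptions inside each list. The deposited −log10 q-value is quoted for a few peaks. Read counts were not used, so depth is unknown. The 4 dm3 lists were not used.

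Transcript starts came from Ensembl release 115 (BDGP6.54) and sequence from RefSeq Release 6, whose coordinates match dm6: no peak ended past its sequence and all 33 annotated start codons read ATG. Genes on unplaced scaffolds were left out. Summits were assigned with Python 3.11.15, numpy 2.4.6 and scipy 1.17.1, an assignment checked on simulated summits. The alternatives were windows of 250 and 1000 bp, gene 5′ ends, interval overlap, stronger peaks and single replicates. The genes named are those with a promoter peak in any list, those without, genes sharing a peak, and members of 5 pathway lists with an optimal peak. Other pathway genes are named to account for their list. Of 34 pathway names 33 matched a symbol. The members and lists were chosen with earlier results of these data known. With 1 group, no test between conditions exists, and the replicates are biological per the labels.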

Additional observations from a re-analysis of the deposited data

How the results depend on the processing

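The optimal count stayed at 0 of 33 with 250 or 1000 bp, gene 5′ ends, interval overlap and the stronger 1119 optimal peaks, and when alpha-PheRS and beta-PheRS were added after seeing the data. The pooled count stayed at 1 under all its alternatives on window, start, interval and strength. That for both replicates stayed at 3 to 4 under theirs, as LeuRS-m joined at 1000 bp. The shares of all genes moved more. For the pooled list they ran from 14.4% (10000 strongest peaks) to 30.2% (1000 bp), beside 3.03% of synthetase genes. For both replicates, all genes were at 10.4% with the 10000 strongest peaks of each list, close to the 9.09% of synthetase genes. At 250 bp all genes were at 11.9%, and at 1000 bp at 23.4%, beside 9.09% and 12.1% of synthetase genes. Leaving out a replicate moved the counts. In place of 0 optimal genes there were 3 to 4 in all, 2 to 3 cytoplasmic and 1 mitochondrial in either case. Without replicate 2 this was 12.1%, against 5.37% of all genes. Without replicate 4 it was 9.09%, against 5.87%. In place of 1 pooled gene there were 4 to 6, with 2 to 3 cytoplasmic in place of 0 and 2 to 3 mitochondrial in place of 1. These pooled replacements stayed below all genes, at 18.2% against 24.3% without replicate 2 and 12.1% against 26.0% without replicate 4. The lone replicate list has the same length as the list it replaces. It holds the strongest peaks of that replicate's relaxed list, without pooling or the IDR step, so more than the number of replicates changes. The cause was not tested. With 33 genes and 2 replicates, differences of a few genes cannot be resolved, and depth is unknown.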

Other observations

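LeuRS-m, the mitochondrial leucyl enzyme, had a summit just outside the window in both replicates, 840 bp from its start in replicate 4 and 813 bp in replicate 2, while the nearest pooled summit was 13650 bp away. TrpRS, the tryptophanyl enzyme, had a replicate 2 summit at 2601 bp. Of the cytoplasmic phenylalanyl subunits, beta-PheRS had its nearest pooled summit at 7284 bp, which was also an optimal one, and alpha-PheRS at 37628 bp.

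Summits shared by the replicates within 200 bp were usually found in the pooled list. Of 11427 nuclear replicate 4 summits with a replicate 2 summit, 618 (5.41%) had no pooled summit within 200 bp, and among the strongest 1000 peaks of each replicate 20 of 573 (3.49%) had none. Of 12 such replicate 4 summits within 25000 bp of GluProRS or MetRS-m, 9 had a pooled summit. Those at 3R 14278762 and 14278961 are counted apart, although both paired with the same replicate 2 summit. The 3 without were those at the GluProRS starts (2) and the MetRS-m start (1). At the level of genes, 195 of 2428 with a promoter summit in both replicates (8.03%) had none in the pooled list, 2 of the 3 synthetase genes among them. Of the 2238 optimal peaks, 2237 were peaks of the pooled list. Why the pooled list lacks these sites was not tested.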
